A study of Mus musculus with 15 samples.

Results

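The data described here are the 10 of 15 arrays that compare Notch blockade with and without an Lrp6 antibody in mouse crypts. They were chosen by their labels alone. Of these, 5 arrays held crypts of mice given blocking antibodies against Notch1 and Notch2 (the N1N2 group), and 5 held crypts of mice given those antibodies together with an antibody against Lrp6 (the N1N2 plus Lrp6 group). The other 5 arrays, from mice given a control IgG, are used for side-by-side levels and for the shared estimate of spread.

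All mice were 6 to 8 weeks old and crypts of the small intestine were taken 24 h after a single treatment. The Lrp6 antibody was given at 30 mg/kg. For the Notch antibodies the labels state only a concentration, 1 mg/mL, so the dose that a mouse received is unknown here, as are strain, sex and whether an array holds 1 animal or a pool. No group received the Lrp6 antibody without Notch blockade, so every difference below is between crypts that all had Notch1 and Notch2 blocked. The series design calls the 5 arrays of a group biological replicates. Each array carried crypt RNA in red and a universal mouse reference RNA in green, and a level is the log2 ratio of crypt over that reference.

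Crypts are pits of the gut epithelium where stem cells and their dividing progeny lie, in the small intestine beside Paneth cells. Wnt ligands bind a Frizzled receptor together with the co-receptor Lrp5 or Lrp6, beta-catenin then acts with TCF factors on target genes, and this signal keeps stem and progenitor cells dividing. Notch signalling between neighbouring cells raises Hes1, which represses Atoh1, the factor that directs progenitors to the secretory lineages (goblet, Paneth, enteroendocrine and tuft cells). Blocking Notch is known to turn crypt progenitors into secretory cells.

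The arrays carried epithelium as labelled: Epcam had a log2 level of 5.07 to 5.62 on the N1N2 arrays and 4.53 to 5.44 on the N1N2 plus Lrp6 arrays. Of 27 immune cell markers tested, 0 passed in either direction at an adjusted p under 0.05 (limma), and 2 lay higher at an unadjusted p under 0.05. The share of spots well above background in red was 73.9% ± 3.05 (SD, n = 5) in the N1N2 group, from 70.1% to 77.2%, and 64.8% ± 6.01 (SD, n = 5) in the N1N2 plus Lrp6 group, from 57.2% to 73.6% (difference -9.04 percentage points, exact two-sided permutation p = 0.0238, where 0.00794 is the smallest this design allows). In green, the reference channel, N1N2 plus Lrp6 replicates 1 to 4 had 60.5%, 62.6%, 64.1% and 63.8%. The N1N2 arrays had 68.6% to 77.5% in green. Replicate 5 of the N1N2 plus Lrp6 group, on another slide, had 73.6% in red and 72.2% in green. The permutation treated the arrays as exchangeable, although replicates 1 to 4 shared a slide. N1N2 plus Lrp6 replicate 1 stood apart: it had the lowest share of spots, the highest mean of the DNA replication genes and the lowest means of the endoplasmic reticulum (ER) folding genes and stromal markers, and the counts of the leading lists are given without it as well. No slide held arrays of both groups. N1N2 plus Lrp6 replicates 1 to 4 shared a slide and replicate 5 lay on another, so slide and antibody cannot be told apart. Results with slide as a random block and with replicate 5 alone are given below. Neither can separate the 2, because no slide of this group held an N1N2 array. In crypt preparations, fewer cells of a type and less RNA per cell cannot be told apart.

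With the Lrp6 antibody added to Notch blockade, many genes of dividing cells rose and many genes of the goblet and secretory machinery fell. Of the tested members, 35 of 44 DNA replication, 33 of 52 mitosis, 21 of 28 nucleotide synthesis and 20 of 44 ribosome biogenesis genes rose, and 0 fell. Of 41 ER folding genes 26 fell, of 31 goblet markers 15 and of 29 mucin glycosylation genes 13, and 0 rose. Of 36 enteroendocrine markers 6 fell and 1 rose, of 20 Paneth markers 3 fell and 0 rose, and of 17 tuft markers 0 passed. At an unadjusted p under 0.05 (limma), 1 of 52 mitosis genes was lower, against 0 in the other rising lists. At that threshold 0 ER folding, goblet or mucin glycosylation genes were higher. The classical Wnt target genes, by contrast, had a median difference of 0.0037 and members on both sides of 0. Among single genes the largest measured rises were those of Sftpc, a lung surfactant protein, and Rbp7, a retinol-binding protein, and the largest fall was that of Fut2, a mucin fucosyltransferase.

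Of 23939 features tested, 2264 rose (9.46%) and 1739 fell (7.26%) at an adjusted p under 0.05 (limma, Benjamini-Hochberg over all features), and 47 of the rises and 153 of the falls were at least 2-fold. The values of the 5 arrays of each group did not overlap for 2431 features (10.2%), 1468 of them higher and 963 lower with the Lrp6 antibody. The median difference over all features was -0.00089. The split depends on the scaling: with each array centred on its median in place of loess, 2620 rose and 792 fell, so that 76.8% of the calls were rises, against 56.6%. Without N1N2 replicate 4 the counts were 1438 and 1079, and without N1N2 replicate 2 they were 1594 and 1130. The lists below, 39 in all, share some genes, and each list's count is to be read against the percentages above.

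**Figure D1:**
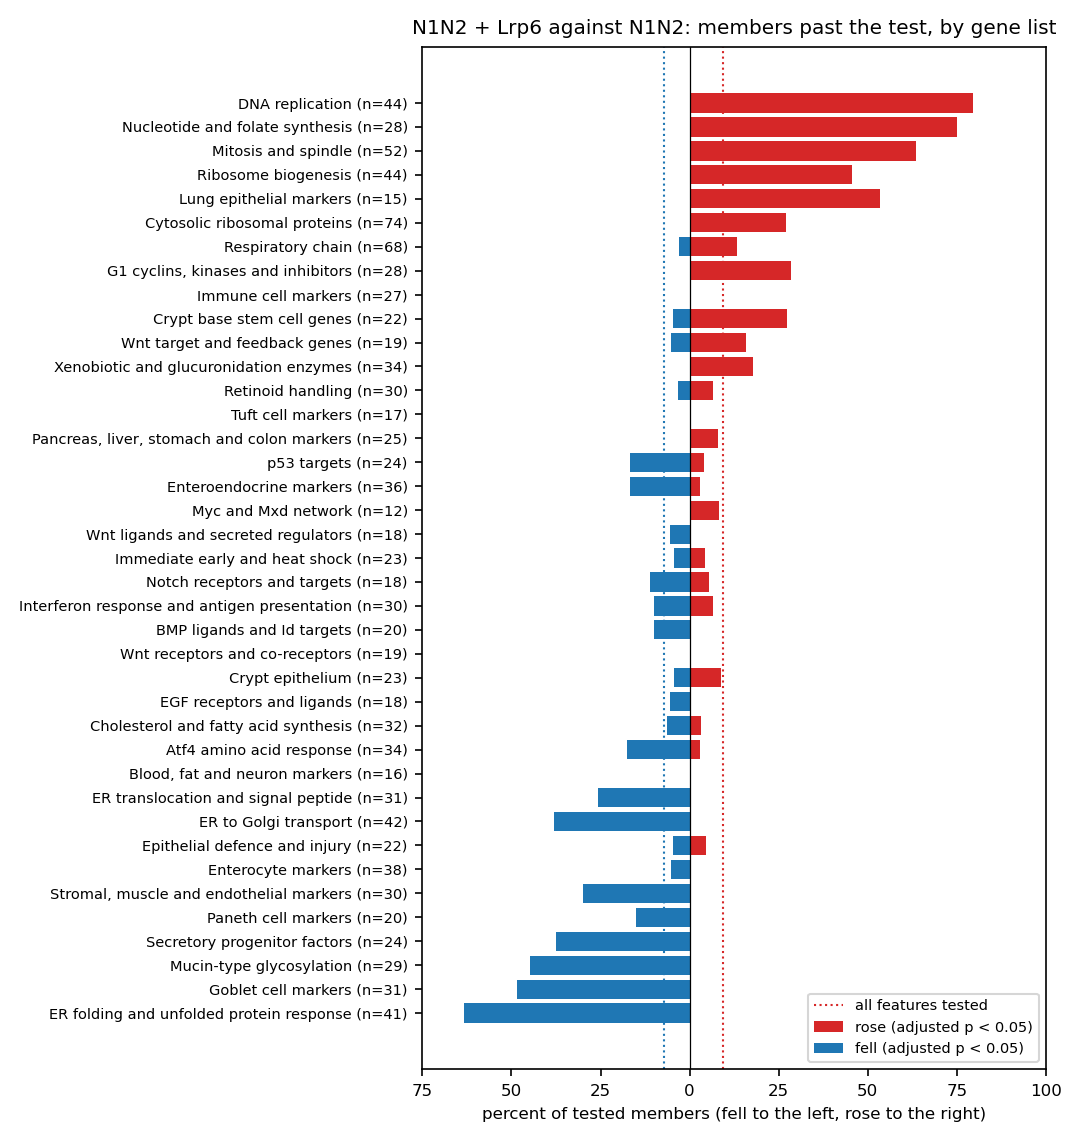
Percent of the tested members of each of 39 gene lists that rose (red, to the right) or fell (blue, to the left) with the Lrp6 antibody at an adjusted p under 0.05, ordered by median difference. The dotted lines mark the shares over all features tested (9.46% and 7.26%). The bar of the lung markers carries no weight as a count, because some members passed the filter on dim probes only through the group where they were high. DNA replication, nucleotide and mitosis genes lie at the top with 35 of 44, 21 of 28 and 33 of 52 members higher, and ER folding genes at the bottom with 26 of 41 lower.

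The transcripts of the antibody targets did not pass the test. Lrp6, the co-receptor that the added antibody binds, had log2 levels of 1.88, 1.58, 1.77, 1.78 and 1.40 on N1N2 replicates 1 to 5 and 1.34, 1.86, 1.32, 0.86 and 1.47 on N1N2 plus Lrp6 replicates 1 to 5. The groups overlapped and the difference of -0.31 did not pass the test (SE 0.17, adjusted p = 0.255). Its second probe differed by 0.0049. The transcripts of the other antibody targets, Notch1 (0.20, adjusted p = 0.487) and Notch2 (0.26, adjusted p = 0.213), did not pass either. Such an antibody acts on the protein, so these transcripts do not check whether it bound.

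Of 19 Wnt receptors and co-receptors, 0 passed at an adjusted p under 0.05 (limma; 1 lower at an unadjusted p under 0.05) and 16 lay below 0 (median -0.11, from -0.68 to 0.14). Among 18 Wnt ligands and secreted regulators the single call was Wnt3, the ligand that Paneth cells supply to their stem cell neighbours. Its log2 levels were 2.11, 3.31, 3.69, 3.14 and 3.49 on the N1N2 arrays and 2.32, 1.45, 2.37, 1.88 and 1.67 with the Lrp6 antibody, a fall of 1.21 (SE 0.25, adjusted p = 0.0048). The overlap came from N1N2 replicate 1, at 2.11, which lay below 2 of the 5 N1N2 plus Lrp6 arrays. The control mean was 1.25 ± 0.17 (SD, n = 5).

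Among the 19 Wnt target and feedback genes, 3 rose and 1 fell. Ascl2, the transcription factor that maintains crypt stem cells, had log2 levels of 1.1, 1.59, 1.86, 1.32 and 2.14 in N1N2 replicates 1 to 5 and 3.62, 2.67, 3.02, 2.94 and 2.37 in N1N2 plus Lrp6 replicates 1 to 5. Every array with the Lrp6 antibody lay above every N1N2 array, with replicate 1 the highest and replicate 5 the lowest, and the mean was 2.50-fold higher (log2 difference 1.32, SE 0.24, adjusted p = 0.00262). The control mean, 3.05 ± 0.39, lay beside the level with both antibodies, 2.92 ± 0.47. Ccnd1, the G1 cyclin that partners Cdk4 and Cdk6, rose by 0.64 without overlap (adjusted p = 0.00232). The growth regulator Myc rose by 0.72 (adjusted p = 0.0219), and this call was lost without N1N2 plus Lrp6 replicate 4 (adjusted p = 0.0501) or without N1N2 replicate 1 (adjusted p = 0.0512).

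Some other stem cell and feedback members lay below 0. Lgr5, the receptor for R-spondins that marks crypt base stem cells, had levels of 1.29, 2.18, 2.72, 1.84 and 2.41 in the N1N2 group and 1.65, 0.89, 1.95, 1.49 and 1.16 with the Lrp6 antibody. The arrays overlapped and the difference of -0.66 missed the threshold (SE 0.24, adjusted p = 0.0783). On the control arrays Lgr5 ran from 2.37 to 2.96, above every N1N2 plus Lrp6 array. Axin2, the scaffold of the beta-catenin destruction complex and a direct Wnt target, had levels of 1.35, 2.19, 2.71, 2.05 and 2.07 against 2.21, 1.09, 1.59, 1.48 and 2.06. Both groups spread over more than 1 log2 unit and overlapped (difference -0.39, SE 0.22, adjusted p = 0.28), and its second probe differed by 0.031. Nkd1, a feedback inhibitor, fell by 0.61 (adjusted p = 0.0223), a call lost without N1N2 plus Lrp6 replicate 5 (adjusted p = 0.0518) or N1N2 replicate 2 or 3 (adjusted p = 0.0588 and 0.0559).

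The 22 crypt base stem cell genes, which include Ascl2 and Lgr5, had a median difference of 0.0064 with 6 rises and 1 fall. Slc14a1, a urea transporter of the published stem cell signature, rose by 1.19, from -1.72, -1.45, -1.89, -1.75 and -1.65 on the N1N2 arrays to -0.37, -0.92, -0.11, -0.34 and -0.78 with the Lrp6 antibody. These values did not overlap. Scn2b, a sodium channel subunit, rose by 1.09 and Cdca7, a cell-division-associated gene, by 0.69, both without overlap. The member that fell was Phlda1, by 0.68 (adjusted p = 0.0149), named here because it was the single fall in the list.

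**Figure D2:**
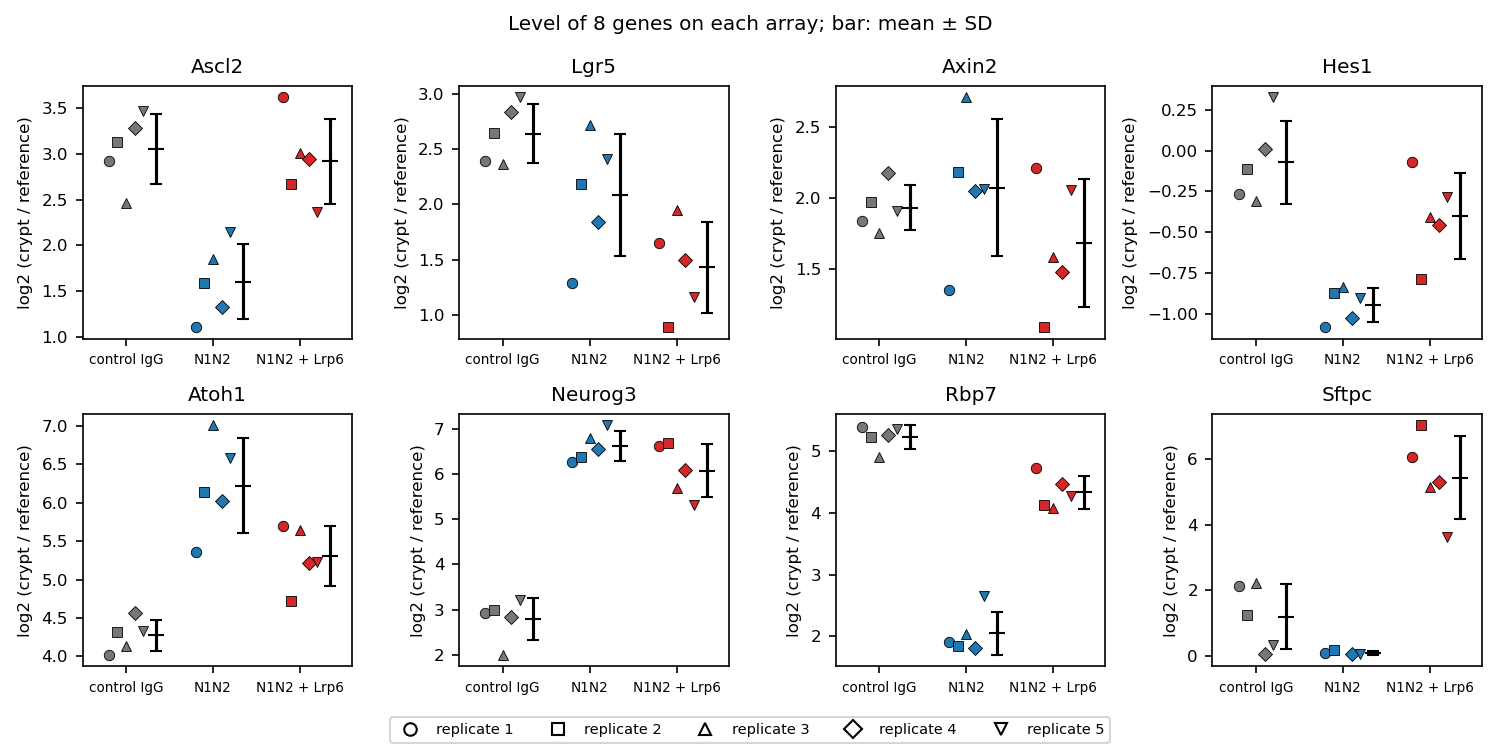
Log2 level of crypt over reference on each array for 8 genes in the control IgG, N1N2 and N1N2 plus Lrp6 groups, with the mean and SD beside the points and a marker shape per replicate number. Ascl2, Hes1, Rbp7 and Sftpc lie higher on every N1N2 plus Lrp6 array than on any N1N2 array, whereas Lgr5, Axin2, Atoh1 and Neurog3 overlap.

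Of 18 Notch receptors and targets, 1 rose and 2 fell. Hes1, the Notch effector that represses Atoh1, had levels of -1.08, -0.88, -0.84, -1.03 and -0.90 under Notch blockade and -0.07, -0.79, -0.41, -0.46 and -0.28 with the Lrp6 antibody added. The groups did not overlap, although N1N2 plus Lrp6 replicate 2, at -0.79, lay close to N1N2 replicate 3, at -0.84, and Hes1 rose by 0.54 (SE 0.13, adjusted p = 0.0113). Its control mean was -0.072 ± 0.26 (SD, n = 5). Lfng, a glycosyltransferase that modifies Notch, fell by 0.44. Notch4 fell by 0.50 (adjusted p = 0.0385), a call lost without any of 8 single arrays, with an adjusted p up to 0.111. The ligand Dll1, which Atoh1-positive progenitors display, had levels of 5.24, 5.31, 5.63, 5.40 and 5.26 in the N1N2 group and 4.24, 4.33, 4.61, 4.24 and 4.13 with the Lrp6 antibody. The 2 sets were 0.63 log2 units apart at their nearest points, and Dll1 fell by 1.06 (adjusted p = 0.000244) to a level between those of the N1N2 and control groups (control mean 3.56 ± 0.19). Dll4, another ligand, fell by 0.95 without overlap.

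Genes that copy DNA rose in most cases. Of 44 DNA replication genes tested, 35 rose and 0 fell, 43 lay above 0 and the median difference was 0.78, against -0.00089 over all features. Leaving out N1N2 plus Lrp6 replicate 1 gave 33 rises and a median of 0.68, and replicate 5 alone, which lay on its own slide, gave a median of 0.56 with 1 call. The mean of the 44 genes was -1.84, -1.55, -1.65, -1.65 and -1.59 on N1N2 replicates 1 to 5 and -0.66, -1.22, -0.98, -0.96 and -1.13 on N1N2 plus Lrp6 replicates 1 to 5. The groups did not overlap, and the control arrays averaged -1.21 ± 0.17 (SD, n = 5).

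Loading of the helicase comes before replication. Mcm3, a subunit of the MCM2 to MCM7 helicase, had levels of -1.84, -1.22, -1.59, -1.63 and -1.54 in the N1N2 group and -0.30, -0.96, -0.52, -0.53 and -0.74 with the Lrp6 antibody, a rise of 0.95 (SE 0.14, adjusted p = 0.0007) without overlap. Mcm6 rose by 0.99 and Mcm5 by 0.88. At the fork, Rfc4, a subunit of the clamp loader that places PCNA on DNA, had levels of -2.10, -1.85, -1.86, -1.92 and -1.68 against -0.51, -1.15, -0.78, -0.78 and -1.05. Its 2.04-fold rise showed on both probes (log2 differences 1.03 and 1.06). Lig1, the ligase that joins Okazaki fragments, rose by 0.91 (adjusted p = 0.000246), Rfc5, another clamp loader subunit, by 0.82, and Rpa2, a subunit of the single-strand binding protein, by 0.90. Chaf1b, which assembles histones behind the fork, rose by 1.04. None of these overlapped between the groups, and N1N2 plus Lrp6 replicate 1 was the highest array for Lig1, Rfc4, Chaf1b and Rpa2.

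Many S-phase genes carry E2F sites near their start. The promoters below, of Mcm6 and Mcm5, are examples from the genes that hold such letters, chosen after their values were seen. A search of 300-base promoters (250 bases before to 50 after each start, both strands) for TTTCCCGC or TTTGGCGC found a match in 12 of 45 promoters of the DNA replication genes (26.7%; 36 of the 44 genes had a promoter in the table), against 514 of 32851 promoters in the table (1.56%). For all genes tested it was 379 of 15957 promoters (2.38%), and for the mitosis genes 3 of 49 promoters (6.12%). The 200 bases before the start are given 5′ to 3′ on the gene's strand, with matches in capitals. Sequences are from RefSeq, build GRCm38.p6. Mcm6 lies on the minus strand at chr1:128359706-128359905 and holds TTTGGCGC at 2 places, and Mcm5 lies on the plus strand at chr8:75109309-75109508 and holds the same site on the opposite strand, read as GCGCCAAA.
Mcm6: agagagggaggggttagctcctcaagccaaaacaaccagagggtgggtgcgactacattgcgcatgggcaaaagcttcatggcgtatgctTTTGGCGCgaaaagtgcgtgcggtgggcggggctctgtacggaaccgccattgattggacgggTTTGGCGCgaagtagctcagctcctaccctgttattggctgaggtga
Mcm5: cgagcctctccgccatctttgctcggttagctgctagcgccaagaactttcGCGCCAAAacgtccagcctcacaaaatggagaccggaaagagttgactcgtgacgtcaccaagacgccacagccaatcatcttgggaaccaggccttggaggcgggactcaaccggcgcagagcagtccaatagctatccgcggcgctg
A match describes the letters in the window and does not show that a factor was bound there. The E2F genes themselves were among 28 G1 cyclins, kinases and inhibitors, of which 8 rose and 0 fell (median 0.14). The activator E2f1 rose by 0.70 (adjusted p = 0.00138) and the repressor E2f8, itself an S-phase gene, by 1.09. Ccne1, the cyclin of the G1 to S step, rose by 0.45 on the probe used and was at 0.14 on its second probe. Cdkn2c, an inhibitor of Cdk4 and Cdk6, rose as well, by 0.68.

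Mitosis genes rose in 33 of 52 cases and fell in 0, with a median of 0.60. Without N1N2 plus Lrp6 replicate 1 the count was 31 and the median 0.51, and replicate 5 alone gave a median of 0.45 with 0 calls at an adjusted p under 0.05. Pbk, a mitotic kinase, had the largest difference of the list, with levels of -2.79, -3.13, -2.55, -3.03 and -2.41 in the N1N2 group and -0.29, -1.56, -1.33, -1.11 and -1.57 with the Lrp6 antibody. Replicate 1 was well above the others of its group, and the rise was 3.05-fold (log2 difference 1.61, SE 0.22, adjusted p = 0.000545). Cdk1, the kinase that drives entry into mitosis, had levels of -2.52, -2.39, -2.08, -2.40 and -2.10 against -1.07, -1.59, -1.33, -1.22 and -1.58. That probe rose by 0.94, while the second Cdk1 probe differed by 0.077.

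The kinetochore subunit Spc24 rose by 1.06, and the chromosomal passenger genes Birc5 and Cdca8 by 0.87 and 0.61. For Birc5 the 3 probes differed by 0.87 to 1.17. Mki67, the usual marker of dividing cells, did not follow: its levels were -1.08, -0.72, -0.95, -0.32 and -0.76 against -1.06, -0.75, -0.28, -0.81 and -0.63. The groups overlapped widely (difference 0.06, SE 0.15, adjusted p = 0.853), and its second probe differed by -0.025. Differences of the 52 mitosis genes ranged from -0.24 to 1.61.

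Enzymes that make the precursors of DNA rose as well. Of 28 nucleotide and folate synthesis genes, 21 rose and 0 fell (median 0.67; 18 and 0.56 without N1N2 plus Lrp6 replicate 1). Shmt1, the cytosolic enzyme that feeds serine carbon into folate, had levels of -1.14, -1.30, -0.85, -1.13 and -0.95 in the N1N2 group and 0.69, 0.35, 0.24, 0.29 and 0.087 with the Lrp6 antibody. The nearest arrays of the groups were 0.94 log2 units apart (difference 1.41, SE 0.14, adjusted p = 0.000182), although the second probe differed by 0.38. Mthfd1, the next enzyme of that cycle, rose by 1.13. The ribonucleotide reductase subunit Rrm1 rose by 0.92, Dut, which removes dUTP, by 0.98 and Umps, which makes UMP, by 0.72.

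Thymidylate synthase is uncertain. The probe named Tyms differed by 0.069 (adjusted p = 0.523), whereas the probe assigned to its pseudogene Tyms-ps rose by 1.28 (adjusted p = 0.000246). Near-identical copies can share signal on an array, so these probes do not tell which transcript was measured.

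Genes that build ribosomes rose in 20 of 44 cases and fell in 0 (median 0.33; 16 and 0.24 without N1N2 plus Lrp6 replicate 1). Fbl, the methyltransferase of box C/D particles, had levels of -2.08, -1.86, -1.71, -2.13 and -1.81 against -0.45, -0.91, -1.12, -0.94 and -1.25, a rise of 0.98 (adjusted p = 0.000892) without overlap. Dkc1 and Nhp2, both of the box H/ACA particle that makes pseudouridine, rose by 0.67 and 0.78. Cytosolic ribosomal protein genes rose in 20 of 74 cases and fell in 0, at a lower median of 0.22, with Rps4x at 0.54. That count varied widely: it was 72 with median centring of each array, 5 with arrays scaled to each other and from 5 to 21 with single arrays left out. The libraries that lowered it beyond 1.5 times were N1N2 plus Lrp6 replicates 1, 3 and 4 (8, 11 and 7) and N1N2 replicates 2, 3 and 4 (11, 8 and 5).

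**Figure D3:**
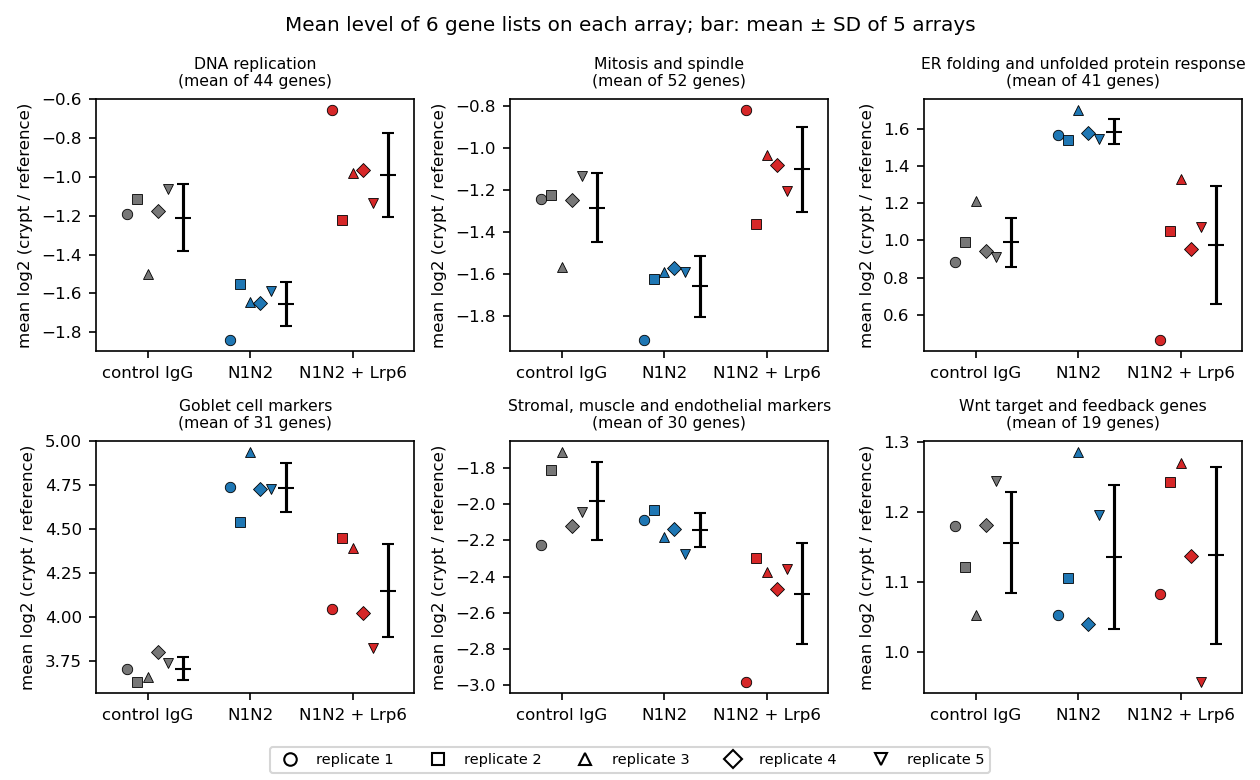
Mean log2 level of 6 gene lists on each of the 15 arrays, by group, with the mean and SD of the 5 arrays of a group and a marker shape per replicate number. DNA replication and mitosis means are higher, and ER folding, goblet and stromal means lower, on every N1N2 plus Lrp6 array than on any N1N2 array; the Wnt target means overlap across all groups.

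On the secretory side, several factors that commit progenitors to a lineage fell. Of 24 secretory progenitor factors, 9 fell and 0 rose (median -0.42; 10 and -0.55 without N1N2 plus Lrp6 replicate 1, and 6 and -0.21 with arrays scaled to each other). Atoh1, the factor that starts secretory fate, had levels of 5.35, 6.15, 7.01, 6.02 and 6.59 in the N1N2 group and 5.70, 4.73, 5.64, 5.22 and 5.23 with the Lrp6 antibody. N1N2 replicate 1, at 5.35, overlapped the other group, and Atoh1 fell by 0.92 (SE 0.25, adjusted p = 0.0205) to a mean of 5.31 ± 0.39, with the control at 4.27 ± 0.21. Spdef, which directs goblet and Paneth maturation, had levels of 7.08, 7.0, 7.65, 7.25 and 7.29 against 6.49, 6.39, 6.49, 6.27 and 5.86. These did not overlap, and Spdef fell by 0.96 (adjusted p = 0.000547).

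Gfi1, which acts below Atoh1 to keep cells out of the endocrine path, fell by 1.27, and the co-repressor Cbfa2t3 by 1.43 on the probe used, with -0.0069 on its second probe. On the endocrine branch, Rfx6 fell by 1.33 and Pax4 by 0.82, both overlapping through N1N2 replicate 1. Neurog3, the factor that starts endocrine fate, had levels of 6.27, 6.39, 6.81, 6.56 and 7.09 against 6.62, 6.69, 5.69, 6.09 and 5.31. The groups overlapped, with N1N2 plus Lrp6 replicates 1 and 2 inside the N1N2 range, and the difference of -0.54 did not pass (SE 0.27, adjusted p = 0.199). Both groups lay far above the control mean of 2.79 ± 0.47.

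Goblet cells, which secrete the mucus layer, had 15 of 31 markers lower and 0 higher, and all 31 differences were below 0 (median -0.48; 14 and -0.47 without N1N2 plus Lrp6 replicate 1). The mean of the 31 was 4.74, 4.54, 4.94, 4.73 and 4.73 on N1N2 replicates 1 to 5 and 4.05, 4.45, 4.39, 4.03 and 3.83 with the Lrp6 antibody. The groups did not overlap, and both lay above the control mean of 3.71 ± 0.067 (SD, n = 5). Sytl2, a synaptotagmin-like protein of vesicle trafficking, had levels of 2.17, 2.62, 2.77, 2.85 and 2.77 against 1.36, 1.09, 1.72, 1.35 and 1.42, a fall of 1.25 (SE 0.13, adjusted p = 0.000246). Rep15, a Rab15 effector, fell by 0.86, the goblet protease Capn8 by 0.96 and Creb3l1, an ER-bound transcription factor, by 0.89.

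The main secreted products of goblet cells did not pass the test. Muc2, the main gel-forming mucin, had levels of 6.25, 5.38, 5.76, 5.67 and 5.43 against 4.82, 6.27, 5.67, 5.51 and 4.97. The groups overlapped and the difference of -0.25 did not pass (adjusted p = 0.548). Tff3, the trefoil peptide, was at -0.56 (adjusted p = 0.0574). Retnlb, an antibacterial goblet protein, fell by 1.28 (adjusted p = 0.0214), a call lost without N1N2 plus Lrp6 replicate 4 (adjusted p = 0.055) or N1N2 replicate 5 (adjusted p = 0.0503). The count for the goblet list was 8 with median centring and 5 with arrays scaled to each other, where Muc2 and Tff3 changed sign to 0.27 and 0.020.

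Enzymes that put sugars on mucins fell in 13 of 29 cases and rose in 0 (median -0.45; 9 and -0.40 without N1N2 plus Lrp6 replicate 1). Fut2, which adds the fucose of the H antigen, had the largest fall of all genes named by the rule, with levels of 2.48, 2.48, 3.96, 2.07 and 2.85 in the N1N2 group and 0.39, 1.17, 1.49, 1.07 and 1.14 with the Lrp6 antibody. N1N2 replicate 3 was the highest and N1N2 plus Lrp6 replicate 1 the lowest, the groups did not overlap, and Fut2 was 3.29-fold lower (log2 difference -1.72, SE 0.27, adjusted p = 0.00111). The control mean was 0.89 ± 0.074. The enzymes that attach the first sugar, Galnt12 and Galnt7, fell by 0.94 and 0.88, and the sialyltransferase St6galnac6 by 1.02.

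The protein-folding machinery of the ER, on which secretory cells depend, fell in 26 of 41 cases and rose in 0 (median -0.59; 23 and -0.46 without N1N2 plus Lrp6 replicate 1, and 10 with median centring). The mean of the 41 genes was 1.57, 1.54, 1.70, 1.58 and 1.54 on N1N2 replicates 1 to 5 and 0.46, 1.05, 1.33, 0.96 and 1.07 with the Lrp6 antibody. The groups did not overlap, and the control mean of 0.99 ± 0.13 (SD, n = 5) lay beside that of the N1N2 plus Lrp6 group, 0.97 ± 0.32. Hspa5, the main Hsp70 chaperone of the ER, had levels of 3.00, 2.87, 2.74, 2.97 and 2.59 against 0.35, 2.07, 2.24, 1.55 and 2.05. Replicate 1 was far below the others, at 0.35, and Hspa5 fell by 1.18 (SE 0.28, adjusted p = 0.0102).

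Pdia6, a disulfide isomerase, had levels of 2.16, 2.35, 2.54, 2.62 and 2.25 in the N1N2 group and 0.34, 1.13, 1.70, 0.99 and 1.43 with the Lrp6 antibody. The groups did not overlap, and Pdia6 fell by 1.27 (adjusted p = 0.000865), with -0.78 on its second probe. The related isomerases Pdia5 and Txndc5 fell by 0.95 and 0.87, Dnajc10, a reductase, by 0.65, and Herpud1, of ER-associated degradation, by 0.70. Xbp1, the transcription factor of the unfolded protein response, fell by 0.56 (adjusted p = 0.0221), a call lost without N1N2 replicate 2 or 3 (adjusted p = 0.0532 and 0.0536).

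Chaperone genes of this kind are known for the ER stress element, to which ATF6 binds together with NF-Y, and its letters, CCAAT and CCACG with 9 bases of any kind between them, were searched in the same promoters on both strands. They were found in 10 of 42 promoters of the ER folding genes (23.8%; 36 of the 41 genes had a promoter in the table), against 39 of 32851 promoters in the table (0.119%), and in 0 of 45 promoters of the DNA replication genes. Hspa5 and Pdia6 are shown because they fell and hold the element. Both lie on the plus strand of GRCm38.p6 (RefSeq), Hspa5 at chr2:34771890-34772089 and Pdia6 at chr12:17266389-17266588, and capitals mark the element in the 200 bases before the start.
Hspa5: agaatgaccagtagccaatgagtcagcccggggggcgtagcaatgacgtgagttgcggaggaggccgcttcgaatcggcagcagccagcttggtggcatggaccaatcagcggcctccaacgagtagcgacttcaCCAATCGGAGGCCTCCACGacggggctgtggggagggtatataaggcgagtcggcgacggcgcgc
Pdia6: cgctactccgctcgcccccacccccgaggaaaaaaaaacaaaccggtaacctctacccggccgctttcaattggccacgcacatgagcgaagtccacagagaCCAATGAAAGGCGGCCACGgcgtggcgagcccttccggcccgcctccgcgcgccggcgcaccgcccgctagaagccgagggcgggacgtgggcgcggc
The same search for a TCF site, ATCAAAG, found 4 of 19 promoters of the Wnt target list (21.1%; 12 genes). It found 3.73% of all promoters in the table and 2.95% of those of the genes tested. The matches in the list were in Mmp7, on both of its promoters, Sp5 and Tnfrsf19.

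Genes that carry proteins into and out of the ER had smaller differences. Of 42 ER to Golgi transport genes 16 fell and 0 rose (median -0.24), among them the Golgi tether Golgb1 by 0.79, the cargo receptor Tmed9 by 0.94 and Preb, the exchange factor that starts COPII coats, by 0.43. That count was 10 without N1N2 plus Lrp6 replicate 1 or 4 or N1N2 replicate 2 or 4, and 1 with median centring. Of 31 ER translocation genes 8 fell and 0 rose (median -0.24, but 0.057 with 0 falls at an adjusted p under 0.05 under median centring; 7 falls without N1N2 plus Lrp6 replicate 1). The translocon-associated Ssr1 fell by 0.65 and the oligosaccharyltransferase subunit Rpn1 by 0.93. The translocon subunit Sec61b fell by 0.49, with 0.033 under median centring. The translocation count was 13 without N1N2 plus Lrp6 replicate 3 and 5 without N1N2 replicate 2 or 4.

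Among the mature lineages other than goblet cells, the shares of Paneth and enteroendocrine markers that fell were above the 7.26% of all features. Those of tuft and enterocyte markers were below it. Of 20 Paneth cell markers 3 fell and 0 rose (median -0.33), and the calls included Wnt3 and Dll4 rather than the granule proteins: the lysozyme Lyz1 was at -0.42 (adjusted p = 0.358). Of 36 enteroendocrine markers 6 fell and 1 rose (median -0.065), among them Cacna1a, a calcium channel subunit, by 1.13, Vwa5b2 by 0.69 and Vamp2, a vesicle fusion protein, by 0.74. Chga, the granin of mature endocrine cells, was at -0.11 (adjusted p = 0.636). Of 17 tuft cell markers 0 passed (limma; 2 higher and 1 lower at an unadjusted p under 0.05), and of 38 enterocyte markers 2 fell and 0 rose (median -0.25).

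**Figure D4:**
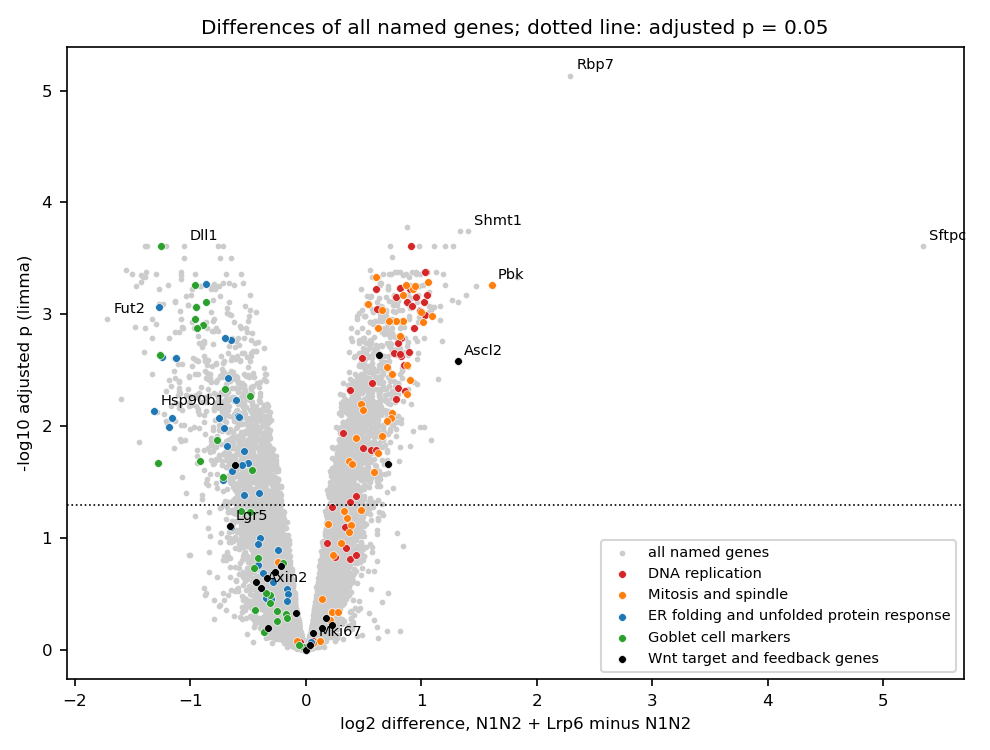
Log2 difference (N1N2 plus Lrp6 minus N1N2, horizontal) against -log10 adjusted p (limma, vertical) for 16058 named genes, with members of 5 lists coloured and 11 genes labelled. DNA replication and mitosis genes lie to the right of 0 and ER folding and goblet genes to the left, while the black points of the Wnt target list lie on both sides.

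Beyond the lists, the 15 largest rises and 15 largest falls were taken among genes with an adjusted p under 0.05, groups that did not overlap and signal above background in both groups. Rbp7, a cytosolic retinol-binding protein, had an adjusted p of 7.38e-06. Its levels were 1.90, 1.84, 2.03, 1.81 and 2.66 in the N1N2 group and 4.72, 4.12, 4.08, 4.47 and 4.27 with the Lrp6 antibody, a 4.89-fold rise (log2 difference 2.29, SE 0.16) towards the control level of 5.23 ± 0.19. All 5 arrays with the Lrp6 antibody lay between the other 2 groups, with 1.43 log2 units to the nearest N1N2 array. Among 30 retinoid handling genes tested, 2 rose, Rbp7 and the retinol carrier Rbp4 (0.48), and 1 fell, the dehydrogenase Rdh16 (-0.49). Both shares lay below those of all features, 9.46% and 7.26%.

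The other rises included genes of the cytoskeleton, the centromere and DNA repair. Cnn3, an actin-binding calponin, had levels of -3.43, -2.95, -3.01, -3.23 and -3.04 against -0.81, -2.18, -1.89, -1.61 and -1.79 and rose by 1.48 (1.16 on its second probe). Stmn1, which destabilises microtubules, rose by 1.32, the centromere protein Cenpp by 1.39, Aunip, a partner of Aurora A, by 1.20 and the repair endonuclease Apex1 by 1.21. The inositol phosphatase Impa2, with a value missing on N1N2 replicate 4, rose by 1.27, and Hpdl, a dioxygenase-like protein, by 1.18. Coq8a, of coenzyme Q synthesis, rose by 1.34 on the probe used but differed by 0.11 on its second probe.

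Among the falls, Slc17a9, the vesicular nucleotide transporter, had levels of 1.56, 2.05, 2.21, 1.93 and 2.07 in the N1N2 group and -0.26, 0.46, 1.04, 0.56 and 0.25 with the Lrp6 antibody, a fall of 1.55 (adjusted p = 0.000402). Chrm1, a muscarinic acetylcholine receptor, had levels of 1.77, 2.12, 2.39, 2.42 and 1.88 against 1.03, 0.90, 0.83, 0.40 and 0.58. It fell by 1.37 (SE 0.14, adjusted p = 0.000244), and its control mean was 0.47 ± 0.16. Rapgef3, an exchange factor activated by cyclic AMP, fell by 1.39, the lipoprotein receptor Vldlr by 1.38, the basement membrane chain Lama5 by 1.39 and Utrn, a dystrophin relative, by 1.39.

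The membrane proteins Cd200 and Tnfrsf25 fell by 1.40 and 1.47, the LIM protein Wtip by 1.51, Phf21b by 1.42 and the gasdermin Gsdma2 by 1.40. Airn, a non-coding RNA, fell by 1.47 (-0.45 on its second probe) and the bile acid transporter Slc10a1 by 1.33 (-0.035 on its second probe). Of these 15 genes the level with both antibodies was below the lowest N1N2 array on each of the 5 arrays, as the choice required.

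**Figure D5:**
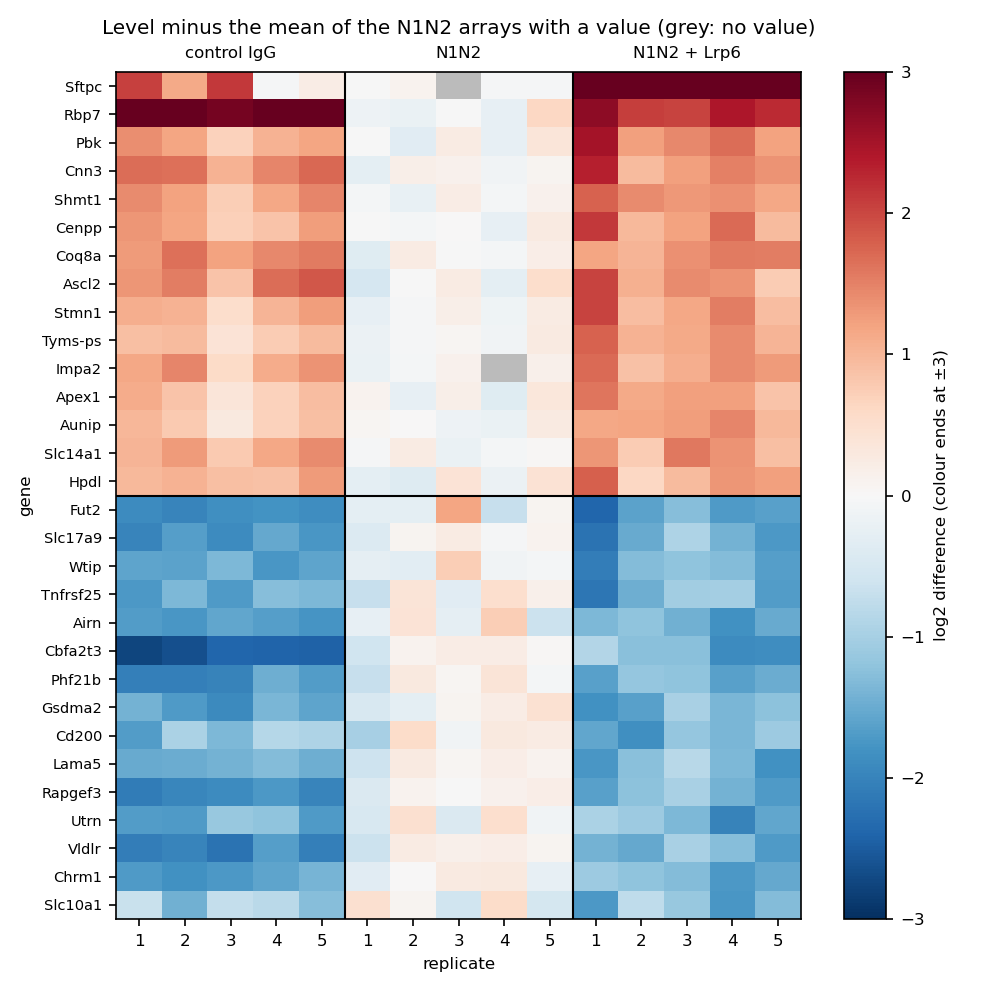
Log2 level minus the mean of the N1N2 arrays for the 15 largest rises (upper block) and 15 largest falls (lower block) on each array, with arrays in columns by group and replicate and grey for a missing value. Sftpc is high on all 5 N1N2 plus Lrp6 arrays and Rbp7 on control and N1N2 plus Lrp6 arrays, and the falls show low values on every N1N2 plus Lrp6 array.

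Smaller metabolic and stress groups were read by the same lists. Of 34 xenobiotic and glucuronidation enzymes 6 rose and 0 fell (median -0.0041). Ugt2b5, a UDP-glucuronosyltransferase, had levels of 1.84, 2.41, 2.44, 1.94 and 2.24 against 3.31, 2.48, 2.55, 3.53 and 3.93 and rose by 0.99 (adjusted p = 0.0102). Its neighbours in the family, Ugt2b35 and Ugt2b38, rose by 0.88 and 0.84, but these genes are close copies that can share signal, and the quinone reductase Nqo1 rose by 0.58. Of 34 genes of the Atf4 amino acid response 6 fell and 1 rose (median -0.15): the glutamine transporter Slc1a5 fell by 0.87 and the cysteine-making enzyme Cth rose by 0.85. Atf4 itself fell by 0.51, with -0.003 on its second probe and 0.10 under median centring.

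Of 24 p53 targets 4 fell and 1 rose (median -0.054). Mdm2, the ligase that degrades p53, fell by 0.50 and Ccng1, a cyclin induced by p53, rose by 0.62. Of 20 BMP ligands and Id targets 2 fell and 0 rose, among them Id4 by 0.72, and of 18 EGF receptors and ligands 1 fell, Dusp6, the phosphatase that limits ERK signalling, by 0.66 (adjusted p = 0.000767). Among 68 respiratory chain genes 9 rose and 2 fell (median 0.16).

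Some stromal markers fell, whereas 0 of 27 immune markers and 0 of 16 blood, fat and neuron markers passed (limma, adjusted p under 0.05; 2 of the latter lower at an unadjusted p under 0.05). Of 30 stromal, muscle and endothelial markers 9 fell and 0 rose (median -0.32; 6 and -0.21 without N1N2 plus Lrp6 replicate 1, 4 without N1N2 plus Lrp6 replicate 4 or N1N2 replicate 2, and 2 with median centring). Their mean was -2.09, -2.03, -2.18, -2.13 and -2.27 on N1N2 replicates 1 to 5 and -2.98, -2.30, -2.37, -2.47 and -2.36 with the Lrp6 antibody. The groups did not overlap, and replicate 1 was far the lowest. The control mean was -1.98 ± 0.21 (SD, n = 5). The collagen gene Col1a2 fell by 0.88 and the smooth muscle actin Acta2 by 0.81. Col1a1 fell by 0.79 (adjusted p = 0.021), a call lost without N1N2 plus Lrp6 replicate 1 (adjusted p = 0.0509) or 4 (adjusted p = 0.0529) or N1N2 replicate 2 (adjusted p = 0.0584). The part of stromal cells in the other results was not tested.

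Some lung genes had higher levels on the N1N2 plus Lrp6 arrays than on the N1N2 arrays. Sftpc, the surfactant protein of alveolar type II cells, had log2 levels of 0.082, 0.20, 0.052 and 0.063 in the N1N2 group (no value on replicate 3) and 6.08, 7.04, 5.15, 5.31 and 3.63 with the Lrp6 antibody. It was 40.6-fold higher (log2 difference 5.34, SE 0.57, adjusted p = 0.000246), with 3.43 log2 units between the nearest arrays of the groups. Sftpc was well above background on 4 of 5 N1N2 and 3 of 5 control arrays. Its N1N2 ratios lay near 0, as did those of Sftpa1 below, so the size of the fold is uncertain. On control arrays 1 to 5 Sftpc was 2.14, 1.24, 2.22, 0.07 and 0.32, higher on the 3 that shared a slide. Sftpa1, another surfactant protein, had levels of 0.20, 0.067, -0.00042, -0.032 and 0.13 in the N1N2 group and 2.33, 2.77, 1.55, 1.92 and 0.95 with the Lrp6 antibody. It was well above background on 0 of 5 N1N2 arrays and on 5 of 5 N1N2 plus Lrp6 arrays, so no fold is given.

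Of 23 lung epithelial markers listed, 15 passed the filter on dim probes, and some did so only through the group where they were high, so that their count of 8 rises and 0 falls carries no weight as a count. At an unadjusted p under 0.05, 3 of the 15 were lower. The median difference of the 15 was 0.26, and 0.062 with N1N2 plus Lrp6 replicate 5 alone. With signal well above background required on all 10 arrays, which left 10 markers, 5 rose and 1 fell. The rises were those of Sftpd by 0.71, the airway protein Sfta2 by 0.47, the club cell protein Scgb1a1 by 0.43, Aqp5, a water channel, and Scgb3a1, a secretoglobin. The groups overlapped for each of these genes. For Sftpd, Sfta2, Scgb1a1 and Scgb3a1 the overlap came from N1N2 plus Lrp6 replicate 5, and for Aqp5 from replicate 3. The fall was that of Slc34a2, a phosphate transporter of alveolar type II cells, with a difference of -0.74 (adjusted p = 0.0428 over the features of that filter and 0.0527 over all features). The 4 markers that did not pass under that filter were Pdpn at -0.43, Abca3 at -0.38, Lamp3 at 0.26 and Napsa at 0.19. Chil1 had levels of -0.15, -0.013, -0.20, -0.14 and 0.12 against 0.77, 0.66, 0.73, 0.96 and -0.21. It was well above background on 0 of 5 N1N2 arrays and 4 of 5 N1N2 plus Lrp6 arrays, and replicate 5 of the latter lay below every N1N2 array. Of 25 markers of pancreas, liver, stomach and colon 2 rose and 0 fell, a share of rises below the 9.46% of all features. Their median difference was -0.049 and 14 lay below 0. The 2 that rose were the gastrokine Gkn2 by 0.75 and the elastase Cela1 by 0.50. The part that RNA of other organs had in any of these values was not tested.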

How the data were processed

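The authors deposited scanner files of 2-colour Agilent arrays with, per the file headers, the median intensity and local background intensity of each spot, quality flags and the software's log10 ratio of red over green. They also deposited a table of log2 values, which correlated with the values computed here at r of at least 0.99998 on every array; the submitters' processing notes name R 3.0.0 and limma 3.6.7. Per the labels' protocols, crypts were released by chelation and strained, and RNA was amplified and labelled, Cy5 for crypts and Cy3 for a common reference, with no dye swap.

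Spots flagged as uneven or as population outliers (306 to 642 per array) were left out. Median intensities were corrected with normexp (offset 50), normalized by loess within arrays with control spots at weight 0, and averaged per probe (limma 3.58.1, run in R 4.3.3, and data.table, version 1.17.8). A probe was kept (28488 of 39429) if 4 or more of the 5 arrays of some group had it well above background in the crypt channel. The brightest probe stood for a gene. Names came from the files, with accessions matched to RefSeq (GRCm38.p6), which gave 26581 probes a name. This left 23939 features, of which 370 lacked a value on at least 1 array and 0 spots were saturated.

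A limma fit of all 15 arrays (lmFit and eBayes) gave the comparison, two-sided, with Benjamini-Hochberg adjustment over all features and a threshold of 0.05. The procedure was tested on simulated data with independent noise on each array and no slide effect, so that test says nothing about slides. Errors are the fit's SE or the SD of 5 arrays, and the number of arrays limits the precision. Nothing but the design text calls the arrays separate biological samples, so p-values measure the spread between these arrays.

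The named genes were the 15 largest rises and 15 largest falls that passed with groups not overlapping and signal in both groups, up to 5 members per list with the smallest adjusted p, preset anchors of each list, the antibody targets, and other-tissue genes that passed. Mcm5, Mcm6, Phlda1 and Slc34a2 were added after their values were seen. The members and lists were chosen with earlier results of these data known.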

Additional observations from a re-analysis of the deposited data

Results flagged for a closer look

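Among 292 groups of 5 arrays checked (132 genes, 13 list means and the share of spots above background, in the N1N2 and the N1N2 plus Lrp6 group), 17 had a highest or lowest array separated from the rest by more than Dixon's test allows, and chance alone separates about 1 in 20 groups. On N1N2 replicate 1, the mean of the mitosis genes was -1.91, and the log2 levels were -2.90 for Cdkn2c, 0.91 for Gfi1, 2.99 for Cbfa2t3, 2.17 for Rfx6, 1.82 for Pax4, 1.16 for Creb3l1, -1.78 for Lama5, -1.69 for Vldlr and -0.12 for Nqo1. Of these genes all but Cdkn2c and Nqo1, which were high there, were low on that array. On N1N2 replicate 3, the mean was 1.70 for the ER folding genes and 3.01 for the mucin glycosylation genes, and Wtip was at 1.85, all high. Rbp7 was high on N1N2 replicate 5, at 2.66.

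In the N1N2 plus Lrp6 group, replicate 1 had a low mean of the stromal, muscle and endothelial markers, -2.98. Replicate 5, the array on the other slide of this group, had low levels of Nhp2, -0.36, and Chil1, -0.21.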

How the results depend on the processing

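Of the 119 named genes that passed, 119 did so in the same direction with the deposited log2 table, 119 without background correction, 119 without the filter on dim probes, 113 with only the 10 arrays of the groups compared or with the scanner's log ratio, 109 with arrays scaled to each other, 96 with median centring (21 no longer passed and 2 changed sign) and 37 with N1N2 plus Lrp6 replicate 5 alone (81 no longer passed and 1 changed sign). Leaving out single arrays ended the call of 6 (Nkd1, Myc, Notch4, Retnlb, Xbp1 and Col1a1). Most named genes were chosen on these same arrays by their large or clear differences, so these shares do not describe calls in general. Over all features, 2493 of the 4003 calls remained without N1N2 replicate 4, and 2780 without N1N2 plus Lrp6 replicate 4. Same-numbered arrays of the groups did not deviate together (correlations from -0.44 to 0.094, and 0 arrays correlated best with their own number), so numbers do not pair samples; with the replicate block 2028 features rose and 1677 fell.

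Slide as a random block gave 3701 rises and 3341 falls, at a negative estimated correlation of -0.18, with 37 ribosomal protein rises, 13 ER translocation falls and 15 stromal falls. A negative correlation lowers the SE of a comparison between groups that share no slide. These larger counts are therefore not a stricter test and do not remove an effect of slide. Median centring of each array gave 792 falls, 72 ribosomal protein rises and, among falls, 10 for ER folding, 1 for ER to Golgi transport, 0 for ER translocation (median 0.057), 8 each for mucin glycosylation and goblet markers and 2 for stromal markers. There Sec61b (0.033), Atf4 (0.10), Chga (0.054) and Epcam (0.076) changed sign.

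With arrays scaled to each other, 5 ribosomal protein genes rose, 6 mucin glycosylation genes and 5 goblet markers fell, and Mki67 (-0.028), Neurog3 (0.090), Muc2 (0.27), Tff3 (0.020), Lyz1 (0.27), Chga (0.42) and Epcam (0.29) changed sign. There the median difference was -0.15 for goblet markers, -0.25 for mucin glycosylation, -0.21 for secretory factors, -0.13 for ER to Golgi transport and -0.54 for stromal markers. With the scanner's log ratio 7 mucin glycosylation genes fell, and Muc2 (0.068) and Chga (0.19) changed sign. The mean over a gene's probes gave 32 ribosomal protein rises, the 10 arrays alone 10 ER to Golgi falls, and signal on all 10 arrays 5 lung rises, with fewer genes tested.

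N1N2 plus Lrp6 replicate 5 alone, a single array whose spread is assumed to be that of the others, gave 62 rises and 156 falls. Its rises were 1 for DNA replication, 3 for nucleotide synthesis, 2 for lung and 0 each for mitosis, ribosome biogenesis and ribosomal proteins. Its falls were 7 for ER folding, 3 for ER to Golgi transport, 1 for mucin glycosylation, 8 for goblet markers, 4 for secretory factors and 0 each for ER translocation and stromal markers. Notch1 (-0.11) and Chil1 (-0.14) changed sign there.

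With single arrays left out, counts ranged from 1438 to 2665 rises and from 1079 to 2077 falls, from 5 to 21 for ribosomal proteins, 10 to 15 for ER to Golgi transport, 5 to 13 for ER translocation and 4 to 9 for stromal markers, and Mki67, which changed sign without N1N2 plus Lrp6 replicate 3 or N1N2 replicate 1, from -0.047 to 0.17. Where a cause is not given, the cause was not tested. Between-array scaling with Aquantile leaves these ratios as they are.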
